A study of Mus musculus with 24 samples.

Results

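CHCHD10 is a small protein of the mitochondrial intermembrane space that belongs to a family named for its coiled-coil-helix-coiled-coil-helix fold. The values of 8 genes of this family, Chchd10, Chchd2, Chchd3, Chchd4, Chchd6, Chchd1, Chchd5 and Chchd7, were read by symbol from both deposited count tables. All 8 were present among the 38937 genes of the shRNA table and the 39310 genes of the siRNA table, and all 8 passed the filter on low counts that left 14697 and 18138 genes for testing.

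Most proteins of the family are imported into the intermembrane space and held there by disulfide bonds between paired cysteines. CHCHD10 and its closest relative CHCHD2 bind each other and lie near the inner-membrane cristae, and in human patients mutations in either gene are linked to neurodegenerative disease. CHCHD3 and CHCHD6 are subunits of MICOS, the complex that shapes cristae junctions. CHCHD4 is the oxidoreductase that catalyses import and disulfide formation of the other family members, CHCHD1 is a protein of the small subunit of the mitochondrial ribosome, and CHCHD7 is the counterpart of a yeast factor for cytochrome c oxidase assembly. Stress in mitochondria can be relayed through the protease OMA1 and the messenger DELE1 to phosphorylation of eIF2α and production of the transcription factor ATF4, the integrated stress response.

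Bulk RNA-seq was made from cultured mouse lung adenocarcinoma cells, which the design text describes as GFP+/CD45- tumour cells taken by sorting, in 24 libraries and 6 groups of 4. In the shRNA table, S/S shAtf4 cells carried an shRNA against Atf4 and S/S shControl cells a scramble shRNA. In the siRNA table, siRNA against Chchd10 was given to A/A cells (A/A siChchd10) and S/S cells (S/S siChchd10), and their controls received siControl (A/A siControl and S/S siControl). S/S cells have eIF2α with the serine that is phosphorylated, and A/A cells have alanine in its place. The titles give A/A for the A/A siControl samples, although their genotype field reads WT, and the titles were followed. The labels do not say how many tumours, clones, siRNAs or hairpins were used, so A/A against S/S cannot be told apart from a difference between cell lines, and effects of an siRNA on other RNAs cannot be told apart from effects of Chchd10 loss. Nothing in the labels ties a library to a culture of its own, and the p-values therefore describe the spread among these 24 samples alone.

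In units of 1e+06 counts, library totals were 14.07 to 70.93 in the shRNA table and 42.86 to 75.41 in the siRNA table. Markers of other cell types were low in every library, with summed levels of at most 5.02 counts per 1e+06 counts (CPM) for 8 leukocyte genes, 2.27 CPM for 5 endothelial genes and 18.3 CPM for 6 fibroblast genes, against 4032 to 6727 CPM for 8 lung epithelial and tumour genes. Krt8, Krt18, Krt19 and Cdh1 made up most of the epithelial and tumour sum in each group. The lung lineage factor Nkx2-1 averaged 131, 115, 35.1 and 37.4 CPM in A/A siChchd10, A/A siControl, S/S siChchd10 and S/S siControl cells and had a count of 0 in all libraries of both shRNA groups. The surfactant genes Sftpc and Sftpb averaged under 1 CPM in both shRNA groups. Replicate 4 of S/S shAtf4 and replicate 4 of S/S shControl stood apart from the other shRNA libraries on the first principal component. A/A siControl replicate 1 stood apart in the siRNA table: 7 RNAs chosen for being present in S/S cells and near 0 in A/A siChchd10 cells were at 6.44% of their S/S siControl level in it, against 1.00%, 0.0185% and 0.0870% in A/A siControl replicates 2, 3 and 4. RNAs of 4 Y-linked genes summed to 1.46 to 3.56 CPM in S/S shAtf4 cells and 112 to 135 CPM in S/S shControl cells. These groups thus differed in more than Atf4. In the siRNA table these RNAs summed to 288 to 360 CPM in A/A siChchd10 and 344 to 380 CPM in A/A siControl cells. They summed to 104 to 130 CPM in S/S siChchd10 and 119 to 144 CPM in S/S siControl cells. The part of these differences in the results below was not tested.

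The 8 genes are spread over the genome (GRCm38, GENCODE annotation). Chchd10 lies on chromosome 10 at 75933130-75937747 (plus strand) and has 4 exons. Chchd2 lies on chromosome 5 at 129881156-129887470, Chchd3 on chromosome 6 at 32790976-33060260, Chchd4 on chromosome 6 at 91462172-91473546 and Chchd6 on chromosome 6 at 89383146-89595652, all on the minus strand. Chchd1 lies on chromosome 14 at 20703006-20704425, Chchd5 on chromosome 2 at 129129700-129134134 and Chchd7 on chromosome 4 at 3938888-3951046, all on the plus strand. The upstream sequence of Chchd10 is shown because ATF4 is known to bind composite elements of the form TGATGNAA, and the samples set Atf4 and eIF2α phosphorylation against their controls. The 250 bases before the start, from RefSeq on GRCm38.p6 at chr10:75932880-75933129, plus strand, read as follows, with matches to TGATGNAA in capitals.

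Chchd10 upstream: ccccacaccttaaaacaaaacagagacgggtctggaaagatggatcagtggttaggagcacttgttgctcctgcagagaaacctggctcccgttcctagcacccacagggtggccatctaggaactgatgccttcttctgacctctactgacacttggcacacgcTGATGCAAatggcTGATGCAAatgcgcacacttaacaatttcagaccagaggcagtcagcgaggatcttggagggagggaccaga

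The search covered both strands. The matches start 85 and 72 bases before the annotated start, and both read TGATGCAA. Each overlaps a match to the octamer ATGCAAAT, and the overlap is partly built in because both motifs hold the letters ATGCAA. The octamer was found at least 1 time in 1.6% and at least 2 times in 0.0974% of mouse promoter windows. Of 32851 mouse promoter windows of the same length, 3.45% held at least 1 match to TGATGNAA and 13 windows, 0.0396%, held at least 2. Those 13 include the Chchd10 window itself. The others are the windows of Olfr118, Sgsm3, Slc7a11 (the cystine transporter gene), Tspyl3, Zfp672 and predicted genes with Gm names. The table held promoters of 6 of the 8 family genes, all but Chchd2 and Chchd7, and the other 5 windows held 0 matches to TGATGNAA. The Chchd5 window held 2 matches to the ETS-type CCGGAAGT, a motif found at least 2 times in 0.174% of windows. A match describes the letters only, and binding was not measured here.

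Chchd10 fell to a fraction of its control level after siChchd10 in cells of both genotypes, which is the check of the knockdown. In A/A siChchd10 cells it had 1.37, 1.75, 2.04 and 2.16 CPM (67 to 164 counts a library), against 10.2, 9.53, 7.97 and 7.99 CPM in A/A siControl cells. In S/S siChchd10 cells it had 6.69, 5.34, 6.33 and 6.82 CPM, against 40.6, 45.5, 38.1 and 46.0 CPM in S/S siControl cells. Every siChchd10 library lay below every siControl library of its genotype. The fitted level left was 20.7% in A/A cells (-2.27 on the log2 scale with an SE of 0.12, adjusted p = 2.264e-13) and 14.8% in S/S cells (-2.76 with an SE of 0.10, adjusted p = 5.119e-16) by edgeR's quasi-likelihood test with Benjamini-Hochberg adjustment, as for all adjusted p-values below.

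The control level of Chchd10 also differed between the genotypes. Chchd10 averaged 8.93 ± 1.14 CPM in A/A siControl cells and 42.6 ± 3.84 CPM in S/S siControl cells (SD, n = 4 each), a log2 fold change of -2.25 (SE 0.09, adjusted p = 1.771e-16). A/A cells thus had 21.0% of the S/S level before any knockdown. In order of mean CPM the siRNA groups ran from A/A siChchd10 (1.83 ± 0.35) through S/S siChchd10 (6.30 ± 0.67) and A/A siControl (8.93 ± 1.14) to S/S siControl, and no neighbours in that order overlapped. Per kb of mRNA the level fell by 7.56 CPM in A/A cells and fell by 38.6 CPM in S/S cells. On the log2 scale the effect of siChchd10 was 0.49 less negative in A/A than in S/S cells (SE 0.16, adjusted p = 0.0205), and this call was lost without A/A siChchd10 replicate 4 (0.39, adjusted p = 0.0855).

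Chchd10 shares 155 exon bases, 9.84% of its exons, with Mmp11 on the other strand, and the strand setting of the counting is not given, so reads of this stretch cannot be assigned to 1 of the genes with certainty. Mmp11 averaged 14.7 ± 0.49 CPM in A/A siChchd10 and 23.5 ± 1.53 CPM in A/A siControl cells, and 36.3 ± 1.56 CPM in S/S siChchd10 and 44.0 ± 2.27 CPM in S/S siControl cells (SD, n = 4 each). Both genes were thus lower in siChchd10 cells, and lower in A/A than in S/S cells.

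**Figure D1:**
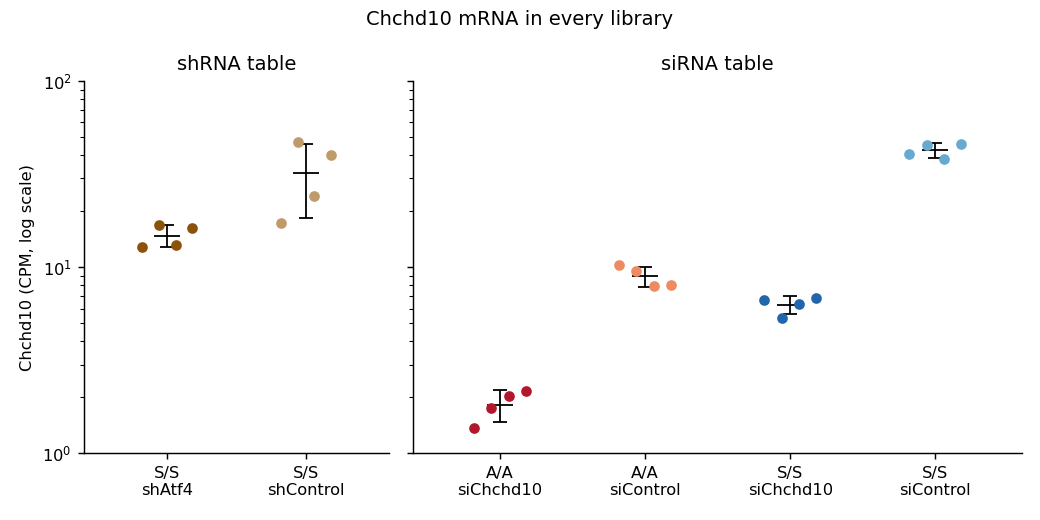
Chchd10 level in every library, in CPM on a log axis; points are libraries, and bars give the mean and SD of 4. The A/A siChchd10 libraries lie lowest (1.37 to 2.16 CPM) and the S/S siControl libraries highest in the siRNA table (38.1 to 46.0 CPM), while the shRNA groups, normalised apart, lie at 12.9 to 16.9 CPM with shAtf4 and 17.4 to 46.9 CPM with shControl.

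Atf4 knockdown in S/S cells went with lower Chchd10, but the difference did not pass the test across all genes. S/S shAtf4 cells had 12.9, 16.9, 13.2 and 16.2 CPM of Chchd10, against 17.4, 46.9, 24.2 and 40.1 CPM in S/S shControl cells. All shAtf4 libraries lay below all shControl libraries, and the shControl libraries spread over a wide range. The log2 fold change was -1.11 (SE 0.29, 95% confidence interval -1.78 to -0.45, adjusted p = 0.176), 46.2% of the control level. Atf4 itself, the target, had 302, 237, 319 and 225 CPM in S/S shAtf4 cells, against 565, 835, 818 and 498 CPM in S/S shControl cells, and its log2 fold change was -1.33 (adjusted p = 0.0327). The groups did not overlap, but the Atf4 call held in only 1 of 8 fits with a library left out, the one without S/S shControl replicate 4, and its adjusted p reached 0.131. With the replicate number as a block the log2 fold change of Atf4 was -1.31 (adjusted p = 0.00431).

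In this comparison 0 of the 8 family genes were called, where 0.538% of the 14697 genes tested were, 0.15% higher and 0.388% lower (79 genes at an adjusted p under 0.05, and 1549 at an unadjusted p under 0.05). The other 7 genes had log2 fold changes of -0.18 to 0.24, and their libraries overlapped between the groups. Same-numbered shRNA libraries deviated together, and with the replicate number as a block 20.2% of genes were called. Chchd10 then fell by 1.05 on the log2 scale (interval -1.40 to -0.70, adjusted p = 0.00192). With the block, Chchd2 (0.25, adjusted p = 0.0221), Chchd3 (0.21, adjusted p = 0.0193), Chchd4 (0.24, adjusted p = 0.0407) and Chchd1 (0.21, adjusted p = 0.0384) rose. Chchd6 (0.24, adjusted p = 0.121), Chchd5 (-0.18, adjusted p = 0.235) and Chchd7 (-0.14, adjusted p = 0.522) did not pass. Without replicate 4 of both groups, which left 11.7% of genes called, only Chchd2 passed among the 8 (0.34, adjusted p = 0.0325). DESeq2 called Chchd10 alone (-1.10, adjusted p = 0.014, 2.56% of genes called).

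In S/S cells, loss of Chchd10 was not accompanied by a rise in any relative. Of the 7 other family genes 0 rose and 1 fell, where 15% of the 18138 genes tested rose and 13% fell (28% called in all). For 7 genes these counts are near the shares of all genes, and they do not set the family apart. Chchd2 had 218, 218, 227 and 256 CPM in S/S siChchd10 cells, against 251, 208, 219 and 241 CPM in S/S siControl cells. These libraries lay over the same range. Its log2 fold change was 0.00 with a 95% interval of -0.12 to 0.12 (adjusted p = 0.988), and the estimate turned to a value just below 0 with other size factors (-0.001696) and with DESeq2 (-0.001169).

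Chchd6 was the family gene that fell with Chchd10 in S/S cells. It had 15.4, 14.1, 15.7 and 16.7 CPM in S/S siChchd10 cells, against 17.0, 17.5, 17.0 and 20.2 CPM in S/S siControl cells. The groups did not overlap, and the highest S/S siChchd10 library lay just below the lowest S/S siControl library. The log2 fold change was -0.21 (SE 0.07, adjusted p = 0.0151), and the call was lost without S/S siControl replicate 4 (-0.15, adjusted p = 0.0917) or without S/S siChchd10 replicate 2 (-0.17, adjusted p = 0.0759). Chchd3 (-0.07), Chchd4 (-0.02), Chchd1 (-0.04), Chchd5 (0.05) and Chchd7 (-0.10) did not pass. Over all 7 relatives the 95% intervals ran from -0.35 to 0.17 on the log2 scale.

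In A/A cells, Chchd2, Chchd3 and Chchd4 were higher after siChchd10. Chchd2 had 321, 355, 353 and 354 CPM in A/A siChchd10 cells, against 265, 247, 258 and 240 CPM in A/A siControl cells. Every A/A siChchd10 library lay above every other library of the siRNA table for this gene. The processed pseudogene Chchd2-ps, which could take reads of Chchd2, had at most 0.71 CPM in the siRNA table. Chchd2 rose 1.37-fold (log2 fold change 0.46, SE 0.06, 95% interval 0.34 to 0.57, adjusted p = 2.234e-07).

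Chchd3, the MICOS subunit, had 79.2, 85.7, 86.0 and 84.8 CPM in A/A siChchd10 cells, against 72.5, 68.0, 68.6 and 68.8 CPM in A/A siControl cells. It rose 1.21-fold (log2 fold change 0.27, SE 0.04, adjusted p = 8.786e-06), with no overlap. Chchd4, the import oxidoreductase, had 43.6, 48.6, 47.1 and 46.5 CPM in A/A siChchd10 cells, against 37.7, 38.1, 37.2 and 34.9 CPM in A/A siControl cells. It rose 1.25-fold (log2 fold change 0.33, SE 0.06, adjusted p = 2.622e-05), again with no overlap. Chchd6 (-0.02), Chchd1 (0.13, adjusted p = 0.0873), Chchd5 (0.04) and Chchd7 (0.16, adjusted p = 0.127) did not pass.

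The rises in A/A cells stand on a background in which most genes moved: 53.7% of the 18138 genes tested were called, 26.5% higher and 27.2% lower, against 3 of the 7 relatives higher and 0 lower. Among all genes called the median absolute log2 fold change was 0.38, beside 0.46 for Chchd2, 0.33 for Chchd4 and 0.27 for Chchd3. Without A/A siControl replicate 1, the library that stood apart, Chchd2 (0.49), Chchd3 (0.31) and Chchd4 (0.35) kept their calls, and Chchd1 passed (0.17, adjusted p = 0.0319). Non-polyadenylated RNAs, a mark of RNA quality, summed over 8 genes to 33.2 to 38.0 CPM in A/A siChchd10 and 21.6 to 28.6 CPM in A/A siControl cells. Most of that sum was the histone gene H1f2, at 31.9 CPM in A/A siChchd10 and 20.1 CPM in A/A siControl cells, while Rpph1 (1.05 and 2.42 CPM), Rn7sk (0.76 and 1.04 CPM) and Rmrp (0.27 and 0.59 CPM) were lower in A/A siChchd10 cells. The sums of the 8 were 14.3 to 20.2 CPM in S/S siChchd10 and 11.7 to 14.3 CPM in S/S siControl cells. The 8 epithelial and tumour markers summed to 5001 to 5497 CPM in A/A siChchd10 cells, against 4400 to 4541 CPM in A/A siControl cells. The genes of this sum did not move together: the surfactant gene Sftpb averaged 1177 CPM in A/A siChchd10 and 290 CPM in A/A siControl cells and Cdh1 1194 and 982 CPM, whereas Krt8 averaged 1069 CPM in A/A siChchd10 and 1178 CPM in A/A siControl cells, and Krt18 and Krt19 were also lower in A/A siChchd10 cells. The same 8 markers summed to 5921 to 6326 CPM in S/S siChchd10 and 5286 to 5899 CPM in S/S siControl cells. Epcam averaged 34.8 CPM in S/S siChchd10 and 8.93 CPM in S/S siControl cells, and Sftpb 8.14 and 2.59 CPM. Nkx2-1 was the marker with a lower mean in S/S siChchd10 cells. The part of these in the results was not tested, and in bulk RNA fewer cells of a type and less RNA per cell cannot be told apart.

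**Figure D2:**
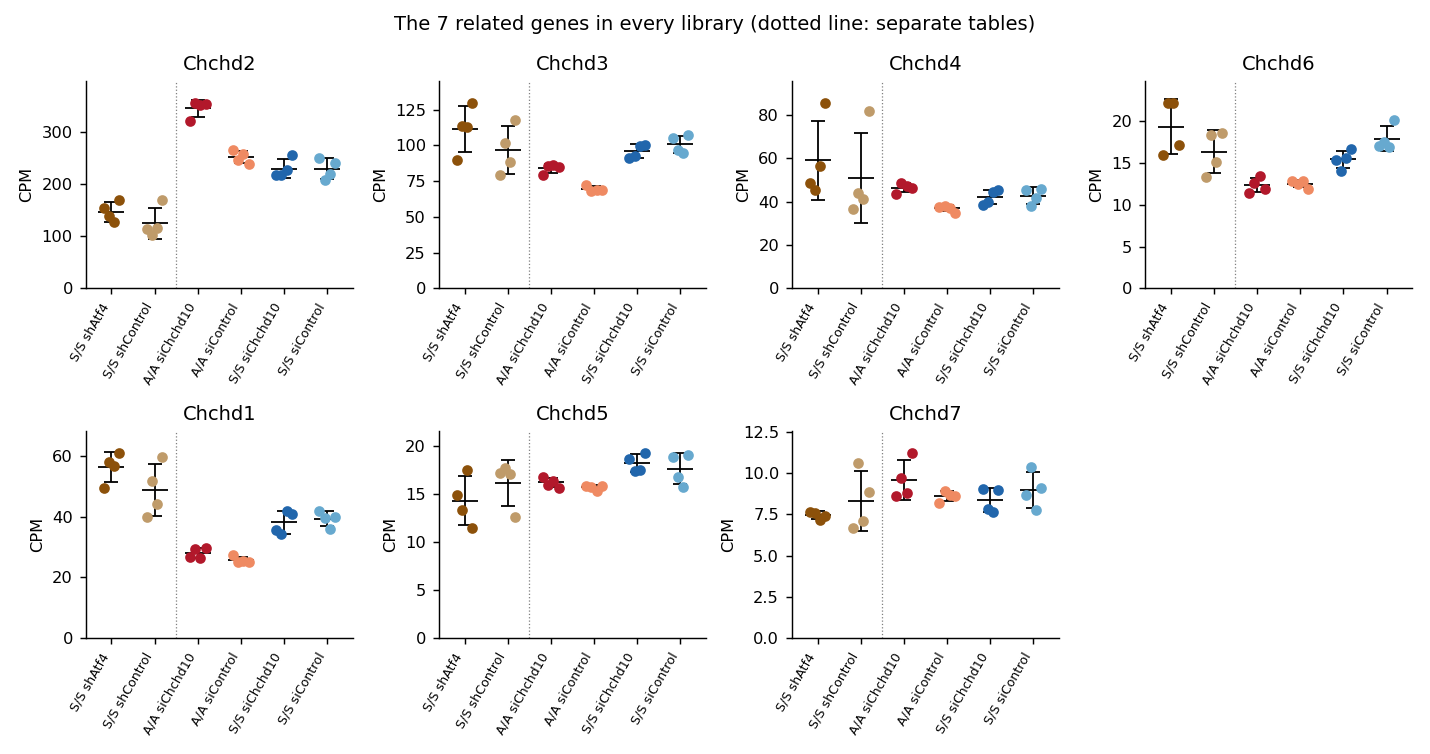
Levels of the 7 other family genes in every library, in CPM on linear axes from 0; points are libraries, bars give the mean and SD of 4, and a dotted line parts the shRNA groups from the siRNA groups, which were normalised apart. The 4 A/A siChchd10 libraries lie above all other siRNA libraries for Chchd2 (321 to 355 CPM).

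The difference between the genotypes was itself tested. The siChchd10 effect was higher in A/A than in S/S cells for Chchd2 by a log2 difference of 0.45 (SE 0.08, adjusted p = 8.824e-05), for Chchd3 by 0.34 (SE 0.06, adjusted p = 0.000103) and for Chchd4 by 0.35 (SE 0.08, adjusted p = 0.00137). With Chchd10, 4 of the 8 genes were called higher and 0 lower, where 16.7% of all genes were called higher and 18.9% lower (35.6% in all). Leaving out any library in turn kept the calls of Chchd2, Chchd3 and Chchd4. Chchd6 (0.19, adjusted p = 0.121), Chchd1 (0.17, adjusted p = 0.132), Chchd5 (-0.01, adjusted p = 0.973) and Chchd7 (0.26, adjusted p = 0.109) did not pass, and the Chchd5 estimate changed sign with other size factors (0.01).

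**Figure D3:**
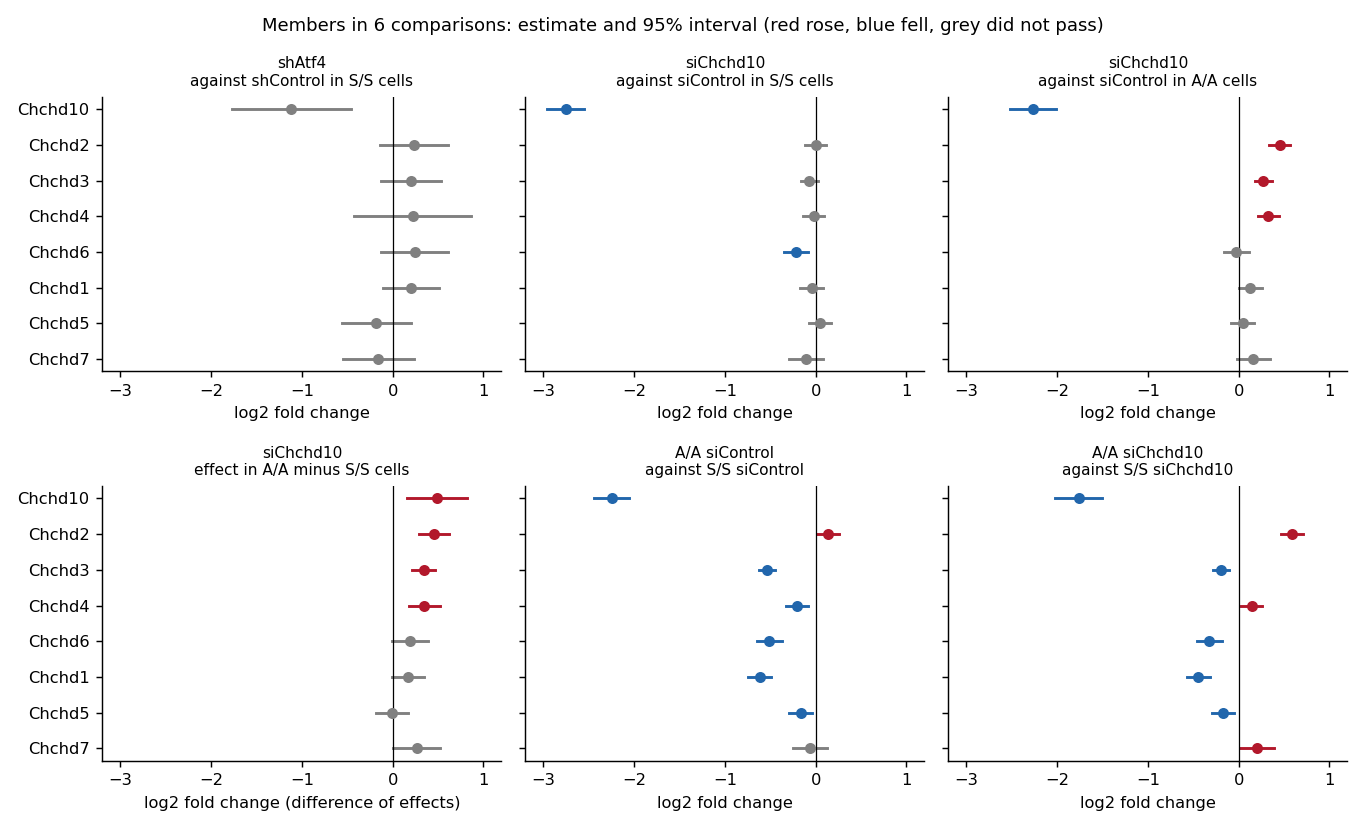
log2 fold changes of the 8 genes in 6 comparisons; points are estimates, bars 95% confidence intervals, red genes rose, blue genes fell and grey genes did not pass an adjusted p of 0.05. Chchd2, Chchd3 and Chchd4 lie to the right of 0 for siChchd10 in A/A cells and near 0 in S/S cells.

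Before knockdown, most of the family was lower in A/A than in S/S cells. Among the 8 genes 6 were lower and 1 higher in A/A siControl cells, where 34.7% of genes were lower and 35.6% higher (70.2% called in all). Chchd1 averaged 25.7 ± 1.11 CPM in A/A siControl and 39.4 ± 2.495 CPM in S/S siControl cells (SD, n = 4 each; log2 fold change -0.61, adjusted p = 8.398e-10). Chchd3 averaged 69.5 ± 2.05 CPM in A/A siControl and 100.8 ± 5.90 CPM in S/S siControl cells (log2 fold change -0.54, adjusted p = 1.326e-11). Chchd6 averaged 12.6 ± 0.43 CPM in A/A siControl and 17.9 ± 1.52 CPM in S/S siControl cells (log2 fold change -0.51, adjusted p = 9.744e-08).

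These 3 genes had no overlap between the groups. Chchd4 (-0.21, adjusted p = 0.00255) and Chchd5 (-0.16, adjusted p = 0.0175) were also lower in A/A siControl cells, with overlapping libraries, and the Chchd5 call was lost without S/S siControl replicate 1 (adjusted p = 0.0741) or replicate 4 (adjusted p = 0.0866). Chchd2 was the exception: it averaged 252 ± 11.3 CPM in A/A siControl and 230 ± 20.02 CPM in S/S siControl cells (log2 fold change 0.14, adjusted p = 0.0368), with overlap. That call was lost with other size factors (adjusted p = 0.0658), with DESeq2 (adjusted p = 0.102) and in 4 of the 16 fits that left out a library, among them that without A/A siControl replicate 1 (0.11, adjusted p = 0.0948). Chchd7 did not pass (-0.06, adjusted p = 0.554). The A/A siControl libraries serve in this comparison and in that of siChchd10 in A/A cells, so the values of the 2 comparisons are not independent.

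After knockdown, in libraries that the baseline comparison did not use, all 8 genes were called between the genotypes, where 70.5% of all genes were, 34.7% higher and 35.8% lower in A/A cells. Chchd2 averaged 346 ± 16.5 CPM in A/A siChchd10 and 230 ± 18.1 CPM in S/S siChchd10 cells (SD, n = 4 each), 1.504-fold higher with no overlap (log2 fold change 0.59, adjusted p = 8.02e-10). Chchd4 (0.14, adjusted p = 0.0286) and Chchd7 (0.20, adjusted p = 0.0461) were higher in A/A siChchd10 cells, and neither call held under upper quartile scaling (adjusted p = 0.0641 and 0.109). Chchd10 (-1.76), Chchd1 (-0.44), Chchd6 (-0.32), Chchd3 (-0.19) and Chchd5 (-0.17) were lower.

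On a scale that allows genes to be compared, CPM per kb of mRNA, Chchd2 was the most abundant family mRNA in each of the 6 groups. In S/S siControl cells Chchd2 (251 ± 21.9) was followed by Chchd3 (65.1 ± 3.81), Chchd1 (64.0 ± 4.05) and Chchd10 (45.3 ± 4.09), and Chchd6, Chchd7, Chchd5 and Chchd4 lay between 15.99 and 12.3 CPM per kb (SD, n = 4). Chchd3 and Chchd1 did not differ there beyond their spread. Chchd10 had the lowest mean level per kb of the 8 in A/A siControl cells (9.51 ± 1.21). Its libraries there overlapped those of Chchd4 (10.7 ± 0.41) and Chchd6 (11.2 ± 0.39). It was the lowest without overlap in A/A siChchd10 (1.95 ± 0.37) and S/S siChchd10 cells (6.71 ± 0.71).

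For every 100 units of Chchd2, per length, Chchd10 stood at 0.51 ± 0.08 in A/A siChchd10 and 3.45 ± 0.38 in A/A siControl cells. The ratio was 2.67 ± 0.25 in S/S siChchd10 and 18.2 ± 2.42 in S/S siControl cells, and 9.87 ± 1.61 in S/S shAtf4 and 25.8 ± 13.1 in S/S shControl cells (SD, n = 4 each). Between the siControl groups the ratio was lower in A/A than in S/S cells in every library. Summed over the 8 genes, the level was 530 ± 23.6 CPM per kb in A/A siChchd10 and 418 ± 15.9 CPM per kb in A/A siControl cells, without overlap. It was 434 ± 30.0 CPM per kb in S/S siChchd10 and 480 ± 31.4 CPM per kb in S/S siControl cells, with overlap. Chchd2 made up 71.2% of the sum in A/A siChchd10 cells and 65.9% in A/A siControl cells, and 57.9% in S/S siChchd10 cells and 52.2% in S/S siControl cells. In A/A cells the Chchd2 level rose by 102 CPM per kb and the Chchd10 level fell by 7.56. In A/A siControl cells Chchd2 stood at 276 ± 12.4 and Chchd10 at 9.51 CPM per kb. The Chchd10 level lost was below the SD of Chchd2 in A/A siControl cells, and replacement of one by the other was not tested. In S/S cells the Chchd10 level fell by 38.6 CPM per kb, and the mean of Chchd2 differed by 0.3.

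**Figure D4:**
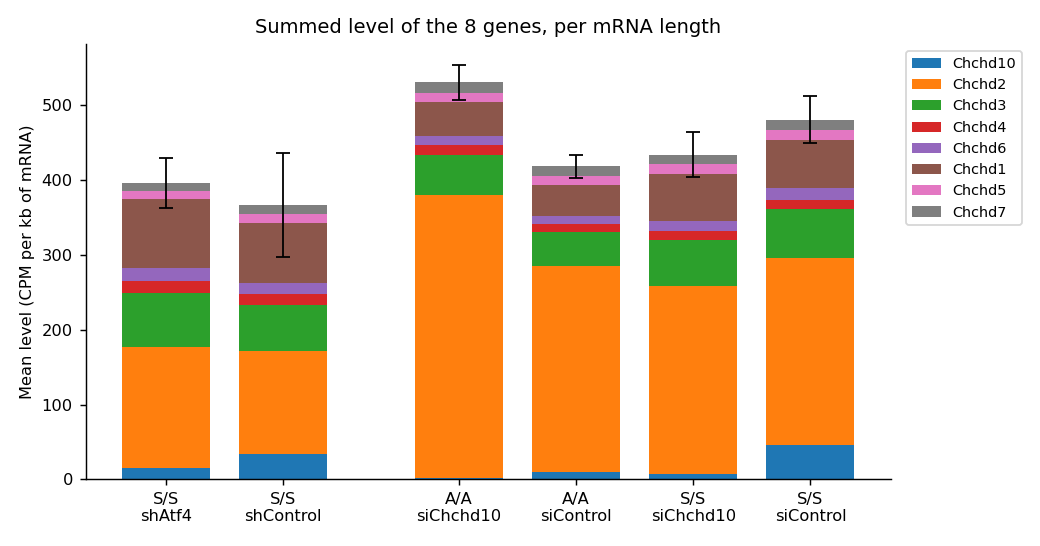
Mean level of each family gene per kb of mRNA, stacked, in the 6 groups; the error bars are the SD of the summed level over 4 libraries, and the shRNA and siRNA groups were normalised apart. Chchd2 takes the largest share in each group, 71.2% of the sum in A/A siChchd10 cells.

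Partner genes were read from 6 lists of proteins that work with the family. The lists were chosen with earlier results of these data known, and the shares below carry no test. After siChchd10 in A/A cells 53 of 85 tested partner genes rose (62.4%) and 10 fell (11.8%), where 26.5% of all genes rose and 27.2% fell. Their median log2 fold change was 0.21, against -0.01 over all genes. After siChchd10 in S/S cells 4 of the 85 rose (4.71%) and 12 fell (14.1%), where 15% of all genes rose and 13% fell, so the share that fell was near that of all genes. The median was -0.02, against 0.00 over all genes. The effect was higher in A/A than in S/S cells for 49 partner genes (57.6%) and lower for 2 (2.35%), where it was higher for 16.7% and lower for 18.9% of all genes.

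Small proteins imported by the same route as the family were among those higher in A/A siChchd10 cells. Of 12 genes of the CHCHD4-dependent import machinery and its substrates, 8 rose and 0 fell (median 0.29), among them the intermembrane space chaperone genes Timm8b (0.47) and Timm8a1 (0.37). All 6 genes of the list of accessory subunits of complexes I and III, most of which carry the same cysteine motif, rose, led by Ndufb10 (0.55) and Ndufb7 (0.43). Of 13 other cytochrome c oxidase genes 7 rose, among them the assembly factors Cox16 (0.58) and Cox19 (0.54). The 1 that fell was Cox6b2, a testis isoform at 0.0578 CPM in A/A siChchd10 and 0.202 CPM in A/A siControl cells.

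Of 29 genes for the small subunit of the mitochondrial ribosome, which holds CHCHD1, 20 rose in A/A siChchd10 cells, led by Mrps34 (0.44) and Mrps14 (0.41), and 4 fell, led by Mrps9 (-0.23). Chchd1 itself did not pass. Of 11 MICOS and bridging genes 6 rose, led by Micos13 (0.49) and Apoo (0.36), and 2 fell, the metaxin gene Mtx3 (-0.43) and Apool (-0.16). Of 14 genes of the OMA1 axis and prohibitin partners 6 rose, led by the prohibitins Phb (0.37) and Phb2 (0.28), and 3 fell, among them the protease genes Htra2 (-0.37) and Oma1 (-0.14).

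In S/S siChchd10 cells, where the calls in these lists are to be read against the 15% of all genes that rose and the 13% that fell, Opa1, the fusion factor of the inner membrane, fell by 0.11 on the log2 scale and was the 1 gene called of 11 in the MICOS list. Cox19 rose (0.30), as did the copper-handling partners Sod1 (0.18) and Ccs (0.17) and the mitophagy kinase Pink1 (0.20). Timm8a1 (-0.31), Timm10 (-0.19), Htra2 (-0.27), the matrix protein gene C1qbp (-0.21) and 6 of 29 small ribosomal subunit genes, led by Mrps18b (-0.20), fell. Htra2 thus fell in cells of both genotypes. Cox19, Sod1, Ccs and Pink1 rose in both, with Sod1 at 0.32, Ccs at 0.35 and Pink1 at 0.21 in A/A cells. Timm8a1 and Mrps18b went the other way in A/A cells, where they rose (0.37 and 0.26). In S/S shAtf4 cells 0 of 83 tested partner genes were called, and with the replicate number as a block 24 rose and 2 fell, where 10.1% of all genes rose and 10.1% fell.

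**Figure D5:**
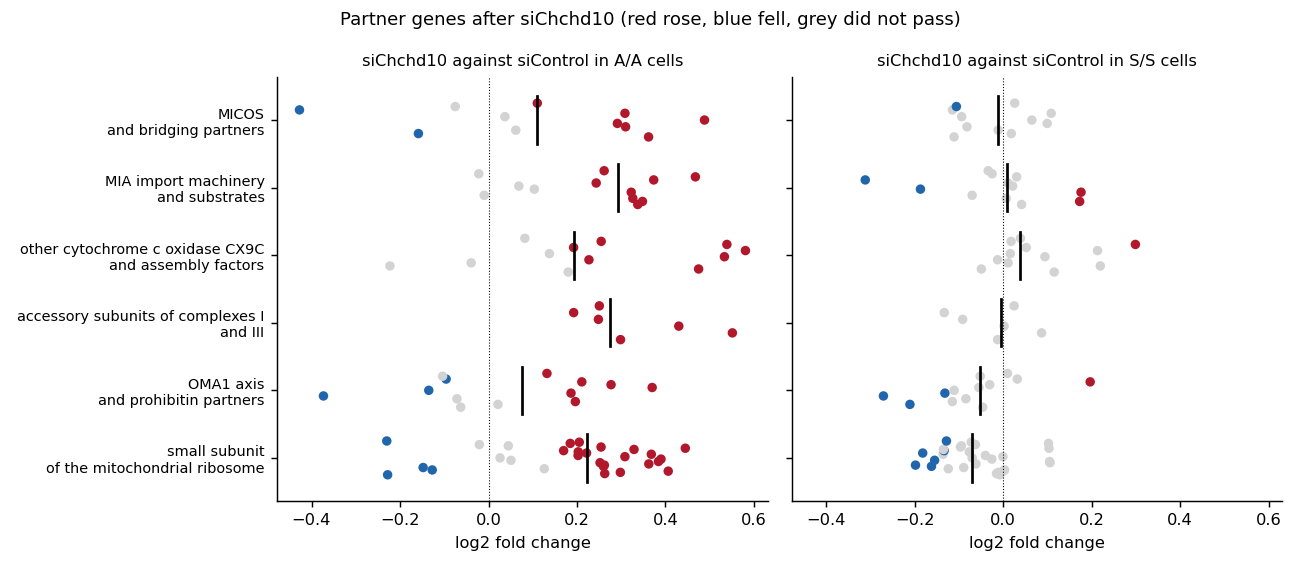
log2 fold changes of partner genes after siChchd10 in A/A (left) and S/S cells (right); each point is a gene, red rose, blue fell, grey did not pass, and a black line marks the median of each list. Genes with few counts, such as Cox6b2, are counted in the medians but not drawn; most points lie right of 0 in A/A cells and around 0 in S/S cells.

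Before knockdown, 42 of the 85 partner genes (49.4%) were lower and 21 (24.7%) higher in A/A than in S/S siControl cells, where 34.7% of all genes were lower and 35.6% higher. The mitochondrial protease Lonp1 averaged 145 CPM in A/A siControl and 311 CPM in S/S siControl cells (log2 fold change -1.10), and Phb2 (-0.67), Samm50 (-0.63), the import partner Aifm1 (-0.63) and the MICOS core gene Immt (-0.56) were also lower. Sod1 (0.80), Mtx3 (0.67), Mrps6 (0.62) and Dele1 (0.56) were higher in A/A siControl cells. Atf4 averaged 164 ± 14.9 CPM in A/A siControl and 519 ± 33.8 CPM in S/S siControl cells (SD, n = 4 each; log2 fold change -1.66, adjusted p = 1.729e-19). After siChchd10, Atf4 fell in A/A cells to 126 ± 4.66 CPM (-0.38, adjusted p = 2.513e-06), without overlap. It fell in S/S cells to 449 ± 25.3 CPM (-0.21, adjusted p = 0.00495), with overlap. The difference of these effects did not pass (-0.17, adjusted p = 0.0932). Without A/A siControl replicate 1, the fall of Atf4 in A/A cells was smaller (-0.30, adjusted p = 1.712e-05). The difference of effects was then -0.09 (adjusted p = 0.319). Between the siChchd10 groups Atf4 was lower in A/A cells (-1.83, adjusted p = 1.668e-20).

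Across the 24 libraries, with log2 CPM centred within each table, the genes whose pattern was most like that of Chchd10 included Klra4 (Pearson r = 0.95), Cdkl2 (0.95), B4galt1 (0.93) and Calu (0.93). These 4 were lower in siChchd10 than in siControl cells of both genotypes and lower in A/A than in S/S cells, and Klra4 averaged 5.997 ± 0.54 CPM in A/A siChchd10, 16.4 ± 1.02 in A/A siControl, 14.6 ± 2.66 in S/S siChchd10 and 32.5 ± 2.62 CPM in S/S siControl cells. Within the family the correlation with Chchd10 ran from 0.61 for Chchd6 through 0.48 for Chchd1 and 0.31 for Chchd3 to -0.62 for Chchd2. The values differed between the tables: over the 8 shRNA and the 16 siRNA libraries they were -0.003 and 0.78 for Chchd6, 0.06 and 0.55 for Chchd1, 0.81 and -0.14 for Chchd7, and -0.26 and -0.74 for Chchd2. These values describe 24 libraries that share groups and treatments and carry no test.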

How the data were processed

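Total RNA was taken with Trizol and made into libraries by the TruSeq Stranded Total RNA protocol for an Illumina NovaSeq, per the labels' protocols, which name the molecule polyA RNA. The authors deposited raw counts per gene, whole numbers with no normalisation, with 8 shRNA libraries in one table and 16 siRNA libraries in another. Build mm10 and DESeq2 1.24.0 are named per the submitters' processing notes. An aligner, a counting program, its strand setting or an annotation is not given in the sources used here. Columns without a sample numbered 0, and 0 pairs of libraries held identical counts.

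The deposited counts went into edgeR 4.0.16 (R 4.3.3, limma 3.58.1) unchanged: filterByExpr, TMM scaling, robust quasi-likelihood fits with 1 term per group, and Benjamini-Hochberg adjustment over all genes tested at a threshold of 0.05. The tables were fitted apart, with the 16 siRNA libraries in 1 model. Scripts were tested on simulated data. Levels are CPM after TMM scaling as mean ± SD. CPM per kb divides by the length of the principal GENCODE transcript. Rose and fell mean past the threshold.

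The family genes, Atf4 and Eif2s1 are always named. From each partner list at most 2 risers and 2 fallers past the threshold, largest changes first, are named, and of the 5 genes most like Chchd10 by correlation 4 are named. Some results are not reported here. Eif2s1, which encodes eIF2α, averaged 222 and 196 CPM in A/A siChchd10 and A/A siControl cells, and 200.0 and 216 CPM in S/S siChchd10 and S/S siControl cells. It rose after siChchd10 in A/A cells (0.18, adjusted p = 0.0011) and did not pass in S/S cells (-0.11, adjusted p = 0.0712). Its difference of effects was called (0.29, adjusted p = 0.00065), so this pattern was not limited to the family genes. The genes and lists were chosen with earlier results of these data known.

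Same-numbered shRNA libraries deviated together in all 4 pairs (correlation of deviations from group means 0.59 to 0.94), so block values stand beside those results. Among siRNA libraries 8 of 24 pairs were over 0.1 (-0.46 to 0.60), so these numbers were not taken as pairs. Alternatives were other size factors, upper quartile scaling, no filter, DESeq2 1.42.0, the replicate block, fits of 8 libraries, and leaving out each library.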

Additional observations from a re-analysis of the deposited data

Results flagged for a closer look

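Among 48 groups of 4 libraries (8 genes in 6 groups), 4 held a library far from the other 3, which chance gives in about 5% of groups. Chchd2 had 321.1 CPM in A/A siChchd10 replicate 1, below the 353 to 355 CPM of the other A/A siChchd10 libraries and still above every A/A siControl library. Chchd3 had 72.5 CPM in A/A siControl replicate 1, above the 68.0 to 68.8 CPM of the other A/A siControl libraries. This is the library with RNAs of S/S cells at 6.44% of their S/S siControl level. Chchd6 had 20.18 CPM in S/S siControl replicate 4, above the 17.0 to 17.5 CPM of the other S/S siControl libraries, and without it the fall of Chchd6 in S/S siChchd10 cells was not called. Chchd5 had 12.56 CPM in S/S shControl replicate 4, below the 17.1 to 17.7 CPM of the other S/S shControl libraries.

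The log2 effect of siChchd10 differed between A/A and S/S cells for 4 genes by the test of the difference. It was higher in A/A cells by 0.4879 for Chchd10 (adjusted p = 0.0205), 0.4532 for Chchd2 (adjusted p = 8.824e-05), 0.3425 for Chchd3 (adjusted p = 0.000103) and 0.351 for Chchd4 (adjusted p = 0.00137), by edgeR's quasi-likelihood test.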

How the results depend on the processing

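The Atf4 comparison depended most on the processing. Family genes called numbered 0 of 8, 1 with DESeq2, 5 with the replicate block and 1 without replicate 4 of both shRNA groups. Genes called over the whole shRNA table numbered 79, 462 with DESeq2, 2969 with the replicate block and 1726 without replicate 4 of both groups. Leaving out 1 library at a time gave 0 to 0 family genes and 13 to 536 genes, the most without S/S shControl replicate 4. The cause was not tested, except that the block takes the shared deviations of same-numbered libraries out of the spread.

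In the siRNA table leaving out 1 library at a time gave 1 to 2 family genes (4279 to 5171 genes) for siChchd10 in S/S cells, 4 to 6 (8935 to 10003) in A/A cells, 3 to 6 (5712 to 6894) for the difference of effects, 6 to 7 (12354 to 12890) between the siControl groups and 6 to 8 (12450 to 12980) between the siChchd10 groups. The replicate block changed no call of a family gene there, with 4703, 9431, 6100, 12561 and 12588 genes called in the same order, and 4 of 24 pairs correlated best with their own number.

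Signs turned in the estimates that follow, none of which was called without the replicate block. For siChchd10 in S/S cells Chchd2 was -0.001696 with other size factors and -0.001169 with DESeq2. For the difference of effects Chchd5 was 0.01343 with other size factors, 0.002643 with no filter and 0.01484 with DESeq2. Leaving out single libraries gave -0.01668 to 0.5449 for Chchd4 with shAtf4, which was 0.22 with all libraries. For siChchd10 in S/S cells it gave -0.05156 to 0.04594 for Chchd2, -0.07719 to 0.01582 for Chchd4 and -0.09136 to 0.005778 for Chchd1. It gave -0.05228 to 0.02291 for Chchd6 with siChchd10 in A/A cells, -0.03245 to 0.05673 for Chchd5 in the difference of effects, and -0.1244 to 0.01932 for Chchd7 between the siControl groups. Chchd1 with siChchd10 in A/A cells passed with no filter (adjusted p = 0.0406), in a fit of its 8 libraries (adjusted p = 0.0271) and in 5 of 16 fits that left out a library. Between the siChchd10 groups, 13, 13 and 12 of 16 such fits kept the calls of Chchd4, Chchd5 and Chchd7. Scalings moved the median of all genes by less than 0.04 on the log2 scale.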
